A study of Mus musculus with 6 samples.

Results

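The ERK feedback genes described here are 10 genes that growth factor signalling through the ERK kinases switches on, and most of their products dampen the same pathway. They are the phosphatase genes Dusp4, Dusp5 and Dusp6, the Sprouty genes Spry1, Spry2 and Spry4, the Spred genes Spred1 and Spred2, and the ETS factor genes Etv4 and Etv5. They were taken by symbol from the table of gene counts, in which all 10 were found among 41327 genes. The libraries come from ID8, an immortalized line from the ovarian surface epithelium of C57BL/6 mice, grown asynchronously and left untreated. Total RNA was sequenced from 3 libraries of genotype Trp53-/- (Trp53_KO) and 3 of genotype Trp53+/+ (Trp53_WT), so that the comparison asks how the genes differ with loss of p53, the tumour suppressor that Trp53 encodes. The labels do not say how Trp53 was altered, whether a genotype is 1 clone or several, or whether replicates are separate cultures. The p-values therefore reflect only how far these 6 libraries scatter, possibly for technical reasons, and a difference between clones and one between genotypes cannot be told apart.

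As background, receptor tyrosine kinases activate RAS, which activates RAF, MEK and finally the ERK kinases. Active ERK enters the nucleus and induces genes within minutes to hours, among them its own inhibitors. The dual-specificity phosphatases DUSP4 and DUSP5 remove phosphate from ERK in the nucleus and DUSP6 does so in the cytoplasm. Sprouty and SPRED proteins act upstream at the level of RAS and RAF, and SPRED1 does so by recruiting neurofibromin, the product of Nf1. ETV4 and ETV5 are transcription factors that carry the output of the pathway, and they are held in check by the repressor Capicua, the product of Cic. RNA levels of these genes are widely used as a readout of ERK output, but they also depend on other regulators of each gene.

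Promoter sequences were searched for motifs of factors known to act in this pathway and of p53. RefSeq promoter windows on GRCm38.p6, which run from 250 bases before to 50 after the start and are 300 bases long, were matched for 7 of the 10 members. Dusp4, Spry4 and Etv4 were not matched. The stretches below are shown for the member with the largest rise, for another phosphatase gene that rose and for a phosphatase and a Sprouty gene that did not pass the test. Capitals mark matches to the motifs searched, on either strand.
Spry1 (chr3:37639797-37639906, plus strand): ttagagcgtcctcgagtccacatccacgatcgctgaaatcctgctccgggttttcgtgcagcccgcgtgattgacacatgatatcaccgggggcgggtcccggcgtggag
Dusp5 (chr19:53528995-53529104, plus strand): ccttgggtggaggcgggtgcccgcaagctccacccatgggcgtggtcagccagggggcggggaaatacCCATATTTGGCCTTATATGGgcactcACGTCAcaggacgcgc
Dusp6 (chr10:99263131-99263240, plus strand): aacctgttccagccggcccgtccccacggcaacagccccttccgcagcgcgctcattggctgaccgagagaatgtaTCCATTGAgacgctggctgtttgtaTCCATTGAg
Spry2 (chr14:105896860-105896969, minus strand): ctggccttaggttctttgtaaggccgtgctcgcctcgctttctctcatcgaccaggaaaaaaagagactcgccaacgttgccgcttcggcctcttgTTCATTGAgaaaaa

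Matches to Capicua, serum response factor and cyclic AMP response motifs were found in a few of these windows. Counting the first transcribed base as 1 and the base before it as -1, Dusp6 held the Capicua octamer TCAATGGA in reverse at -24 to -17 and again at 2 to 9, and Spry2 held the octamer TCAATGAA in reverse at -54 to -47. One of 4 such octamers searched (TGAATGAA, TGAATGGA, TCAATGAA and TCAATGGA) occurs in 3.84% of all 32851 promoter windows of the same length. Dusp5 held a pair of adjoining CArG boxes, the motif of serum response factor, at -82 to -73 and -72 to -63, and a CArG box occurs in 1.63% of windows. The core of the cyclic AMP response element (TGACGT, in 7.51% of windows, also contained in the full element) lay in reverse at -56 to -51 in Dusp5 and at -52 to -47 in Spred2. In the windows of Spry1, Spred1 and Etv5 none of the motifs was found. No member window held an ETS site (CCGGAAGT, 3.89% of windows), an AP-1 site (TGANTCA, 7.81%), a full cyclic AMP response element (TGACGTCA, 1.79%) or a single decamer of the p53 motif (8.36%). A match is a match of letters only, and its absence concerns only these windows.

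Of the 10 ERK feedback genes, 5 rose in Trp53_KO (Spry1, Dusp4, Spry4, Dusp5 and Etv4) and 5 did not pass the test (Dusp6, Spry2, Spred1, Spred2 and Etv5). Spry1 rose 7.44-fold, Dusp4 2.58-fold, Spry4 1.81-fold, Dusp5 1.39-fold and Etv4 1.28-fold. In 8 of 16 alternative analyses 4 members were called higher, because Etv4 missed the threshold. Calls are from edgeR's quasi-likelihood test at a Benjamini-Hochberg adjusted p under 0.05 over all 13651 tested genes, all 10 members among them. Across those genes 14.1% were called higher and 16.1% lower. The members were chosen with earlier results of these data known, so their count beside these shares is a description and not a test. With all 6 libraries 0 members were called lower by edgeR, DESeq2 or limma-voom, and 0 were lower at an unadjusted p under 0.05 in edgeR, whereas Spry2 was called lower when Trp53_WT replicate 1 was left out. All 3 Trp53_KO libraries lay above all 3 Trp53_WT libraries for the same 5 members, against 21.8% of tested genes, and below them for 0 members, against 24.2%. The median log2 fold change of the members was 0.23, against -0.02 for all tested genes. The Dusp, Spry and Etv families each held genes that rose and genes that did not pass the test. Whether the changes of paralogs differ from each other was not tested.

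**Figure D1:**
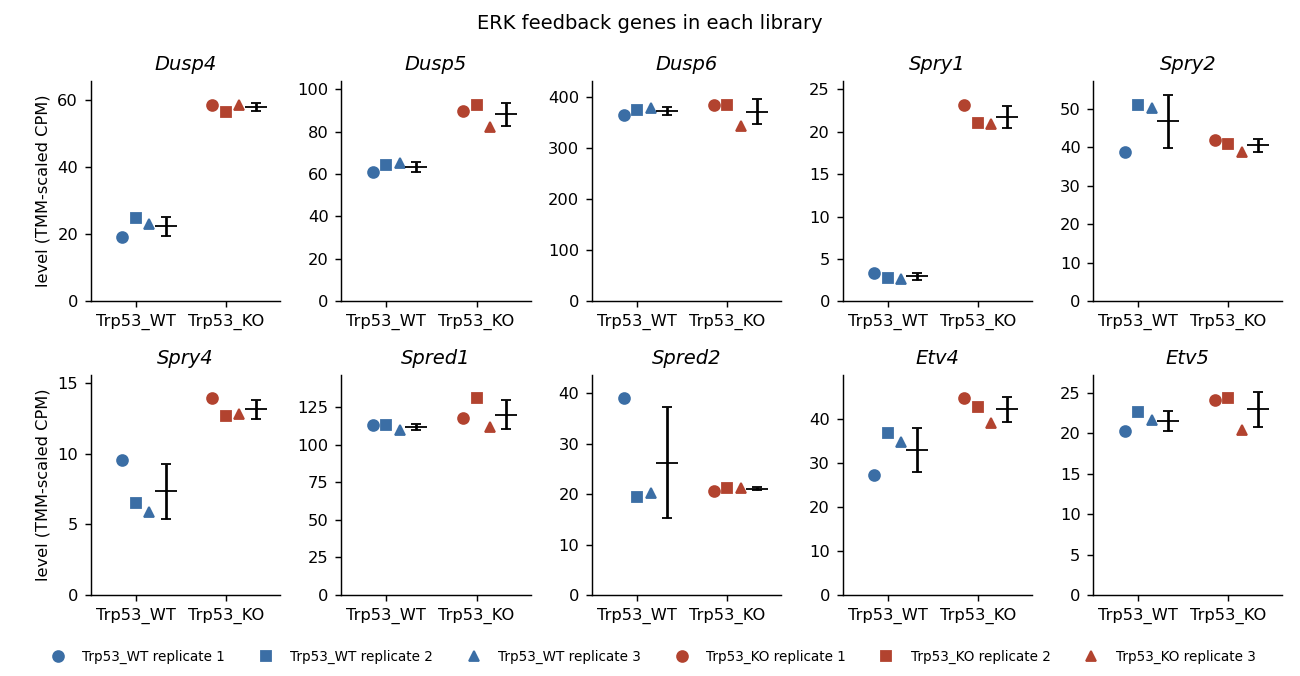
Level of each ERK feedback gene in CPM (counts scaled to library size, with TMM factors for library composition) on a linear axis from 0, with 1 point per library, and the mean ± SD of 3 libraries beside each genotype. The Trp53_KO points of Spry1 (20.96 to 23.2 CPM), Dusp4, Spry4, Dusp5 and Etv4 lie above every Trp53_WT point, and for the other members the genotypes overlap.

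Before the members are taken in turn, the libraries themselves need describing. Total gene counts ranged from 15319956 to 19954170 per library. Trp53 RNA was at 25.3 to 29.6 CPM in Trp53_KO and 97.3 to 110 CPM in Trp53_WT, which matches the labels. Trp53_WT replicate 1 stood apart: 12.6% of tested genes differed by more than 0.5 on the log2 scale from the mean of the other Trp53_WT libraries, against 4.79% to 7.1% for the other 5 libraries. Calls on the members that turn on it are given with and without it. Of 6 epithelial markers 1 (Krt7) was higher and 2 (Krt8 and Krt19) were lower in Trp53_KO, with a summed level of 1323 to 1466 CPM against 1571 to 1687 CPM in Trp53_WT. Krt8 was at 492 and 611 CPM in the means of Trp53_KO and Trp53_WT and Krt19 at 469 and 577 CPM, whereas Epcam had 0 counts in every library and Cdh1 was near 0.7 CPM in both genotypes. Of 4 fibroblast markers 3 were higher in Trp53_KO, with a summed level of 229 to 251 CPM against 101 to 108 CPM, and the fourth, Lum, was at 0. Nearly all of that sum was Dcn, at 235.5 and 102.2 CPM in the means of Trp53_KO and Trp53_WT. Pdgfra was at only 2.16 and 0.799 CPM, and Col15a1 at 0.981 and 0.442 CPM. Of 5 ovarian surface and mesothelial markers 3 were higher and 2 lower, and their sum was 2013 to 2157 CPM against 1662 to 1747 CPM. Among them Upk3b was at 531 CPM in Trp53_KO and 73.7 CPM in Trp53_WT, and Wt1 at 338.8 and 192.1 CPM. The most abundant, Msln, was lower, at 1173 and 1401 CPM. Lrrn4 was at 65.5 CPM in Trp53_KO and 0.235 CPM in Trp53_WT, and Bnc1 at 0.0726 and 38.9 CPM. Of 4 endothelial markers 1 (Pecam1) was higher, with a sum of 1.65 to 2.35 CPM against 0.148 to 0.203 CPM and Cdh5 and Kdr at 0, and of 6 immune markers the only tested one (Cd68) was not called, with sums of 4.1 to 5.36 CPM over all libraries and Cd3e and Itgam at 0. The part of these marker differences in the results below was not tested. In bulk RNA, fewer cells that express a gene and less RNA of it per cell cannot be told apart.

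Among the phosphatase genes, those of the nuclear phosphatases rose and that of the cytoplasmic one did not pass the test. Dusp4 (chromosome 8, 34807297 to 34819894, plus strand; positions are on GRCm38, from GENCODE M21) was at 58.7, 56.7 and 58.6 CPM in Trp53_KO (replicates in order) and at 19.3, 24.9 and 23.0 CPM in Trp53_WT. The Trp53_KO libraries were nearly equal, and the lowest of them lay well above the highest Trp53_WT library. Mean levels were 58.0 ± 1.15 CPM in Trp53_KO and 22.4 ± 2.83 CPM in Trp53_WT (SD, n = 3 each). The log2 fold change was 1.37 ± 0.10 (approximate SE; edgeR, Benjamini-Hochberg adjusted p = 5.1e-06) or a 2.58-fold rise, with a 95% interval of 2.14 to 3.12.

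Dusp5 (chromosome 19, 53529109 to 53542431, plus strand), whose product is a phosphatase specific for ERK, was at 89.7, 92.7 and 82.0 CPM in Trp53_KO and at 60.8, 64.0 and 65.3 CPM in Trp53_WT. Both genotypes were tight and did not overlap. The log2 fold change was 0.47 ± 0.07 (SE; edgeR, Benjamini-Hochberg adjusted p = 0.00098), a 1.39-fold rise (95% interval 1.2 to 1.6). An annotated gene of the opposite strand, AC137853.2, shares 547 exon bases with Dusp5. The sources used here do not give the strand setting of the counting, so reads of the partner could be included.

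Dusp6 (chromosome 10, 99263231 to 99267489, plus strand), the cytoplasmic ERK phosphatase, was at 384, 384 and 342 CPM in Trp53_KO and at 364, 375 and 378 CPM in Trp53_WT. The genotypes overlapped, with Trp53_KO replicate 3 the lowest library and the other Trp53_KO libraries the highest. The means of 370 ± 24.4 and 372 ± 7.19 CPM gave a fold of 0.994 with a 95% interval of 0.877 to 1.13 (edgeR, Benjamini-Hochberg adjusted p = 0.94). The interval allows small changes in either direction and ends below the folds of Dusp4 and Dusp5.

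Among the Sprouty genes, Spry1 and Spry4 rose, and Spry2, by far the most abundant, did not pass the test. Spry1 (chromosome 3, 37639947 to 37644598, plus strand) had 455, 349 and 394 counts in Trp53_KO and 50, 56 and 50 counts in Trp53_WT. On the scaled measure these were 23.2, 21.1 and 21.0 CPM against 3.38, 2.77 and 2.68 CPM, so that every Trp53_KO library lay far above every Trp53_WT library. The log2 fold change was 2.89 ± 0.12 (SE; edgeR, Benjamini-Hochberg adjusted p = 1.5e-07), a 7.44-fold rise (95% interval 5.89 to 9.40). Spry1 had the widest difference of the 10 members. It shares 710 exon bases with Gm42922 on the opposite strand, with the same limit as for Dusp5.

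Spry4 (chromosome 18, 38586247 to 38601415, minus strand) was at 13.9, 12.7 and 12.8 CPM in Trp53_KO and at 9.59, 6.53 and 5.90 CPM in Trp53_WT. The genotypes did not overlap, but Trp53_WT replicate 1 lay 0.63 above the mean of the other Trp53_WT libraries on the log2 scale. The log2 fold change was 0.86 ± 0.17 (SE; edgeR, Benjamini-Hochberg adjusted p = 0.0036), a 1.81-fold rise (95% interval 1.31 to 2.5), and without that library it was 1.08 (adjusted p = 1.6e-06).

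Spry2 (chromosome 14, 105891947 to 105896819, minus strand) was at 42.0, 40.8 and 38.8 CPM in Trp53_KO and at 38.9, 51.1 and 50.3 CPM in Trp53_WT. Trp53_WT replicate 1 lay within the range of Trp53_KO and the other Trp53_WT libraries above it. With all 6 libraries the log2 fold change was -0.21 ± 0.11 (SE; edgeR, Benjamini-Hochberg adjusted p = 0.18), a fold of 0.865 (95% interval 0.702 to 1.07). Without Trp53_WT replicate 1 it was -0.33 with an adjusted p of 0.0024, so that Spry2 was then called lower. The call on Spry2 thus turned on 1 library, and in either fit its value lay on the other side of 0 from those of Spry1 and Spry4.

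**Figure D2:**
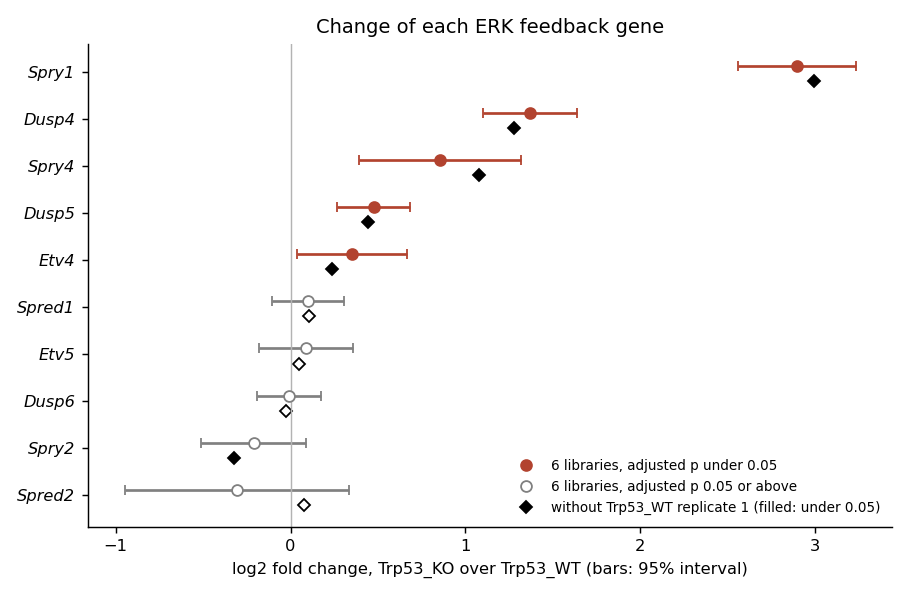
Log2 fold change of Trp53_KO over Trp53_WT for each ERK feedback gene, with 95% intervals from the fit of all 6 libraries (circles, filled where the adjusted p is under 0.05) and the value without Trp53_WT replicate 1 (diamonds, filled likewise). Spry1 at 2.89 and Dusp4 at 1.37 lie farthest from 0, Spry2 is called only in the fit without that library, and Spred2 moves from -0.31 to 0.08.

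The Spred genes, whose products restrain RAS at the membrane, did not pass the test. Spred1 (chromosome 2, 117121374 to 117182279, plus strand) was at 118, 131 and 111 CPM in Trp53_KO and at 113.1, 113 and 109.5 CPM in Trp53_WT. The genotypes overlapped, with a fold of 1.07 (95% interval 0.930 to 1.24; edgeR, Benjamini-Hochberg adjusted p = 0.35). Spred2 (chromosome 11, 19924375 to 20024026, plus strand) was at 20.8, 21.2 and 21.3 CPM in Trp53_KO and at 39.0, 19.5 and 20.3 CPM in Trp53_WT. A single library, Trp53_WT replicate 1, was thus high, 0.97 above the mean of the other Trp53_WT libraries on the log2 scale, and the other 5 libraries lay between 19.54 and 21.27 CPM. The log2 fold change of -0.31 ± 0.23 (SE; edgeR, Benjamini-Hochberg adjusted p = 0.36) became 0.08 without that library (adjusted p = 0.53).

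Of the ETS factor genes, Etv4 rose slightly and Etv5 did not pass the test. Etv4 (chromosome 11, 101769742 to 101785371, minus strand) was at 44.6, 42.7 and 39.0 CPM in Trp53_KO and at 27.3, 36.7 and 34.7 CPM in Trp53_WT. The genotypes did not overlap, but the gap between the lowest Trp53_KO and the highest Trp53_WT library was small. The log2 fold change was 0.35 ± 0.11 (SE; edgeR, Benjamini-Hochberg adjusted p = 0.043), a 1.28-fold rise (95% interval 1.02 to 1.59). It stayed above 0 in all 16 alternative analyses but missed the threshold in 8 of them, with adjusted p-values from 0.006 to 0.34. Leaving out Trp53_KO replicate 1, 2 or 3 or Trp53_WT replicate 3 gave adjusted p-values of 0.15, 0.12, 0.058 and 0.061.

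Etv5 (chromosome 16, 22381309 to 22439719, minus strand) was at 24.2, 24.3 and 20.4 CPM in Trp53_KO and at 20.3, 22.7 and 21.7 CPM in Trp53_WT. The genotypes overlapped, with a fold of 1.06 (95% interval 0.884 to 1.28; edgeR, Benjamini-Hochberg adjusted p = 0.53).

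The members differ in how far Trp53_WT replicate 1 departs from its group. It was the lowest Trp53_WT library for 6 members, against 41.6% of all tested genes, and the highest for 4, against 41.2%. Spred2, Spry4 and Spry1 were high in it, at 0.97, 0.63 and 0.31 on the log2 scale, and Spry2, Etv4 and Dusp4 were low, at -0.38, -0.39 and -0.31, each against the mean of the other Trp53_WT libraries. The rises of Spry1, Dusp4, Spry4 and Dusp5 passed the threshold in all 16 alternatives, that library left out among them.

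**Figure D3:**
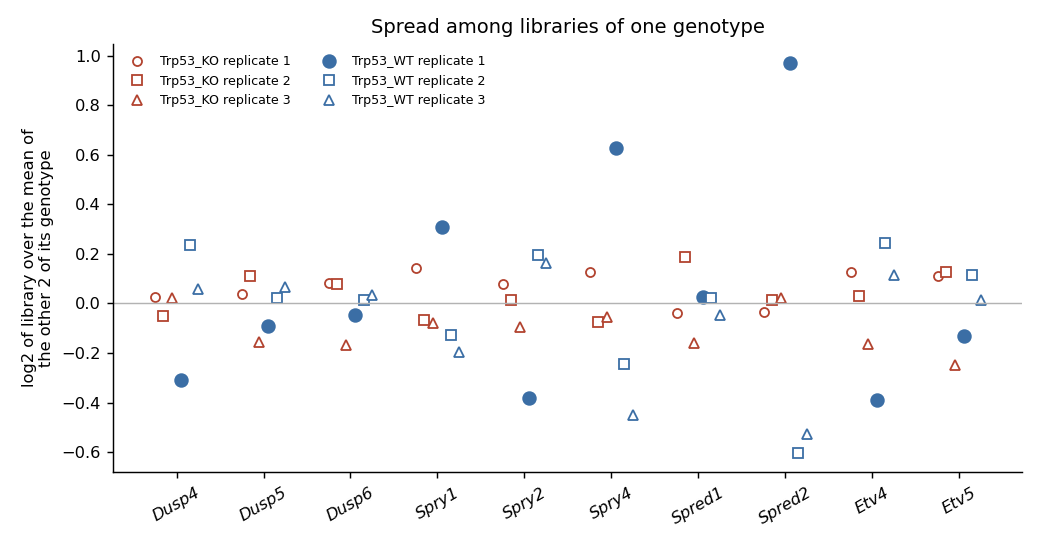
Deviation of each library from the mean of the other 2 libraries of its genotype, on the log2 scale, for each ERK feedback gene. Trp53_WT replicate 1 (filled circles) reaches 0.97 for Spred2 and 0.63 for Spry4 and falls below 0 for 6 of the 10 members.

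Levels can be compared between genes only per length, and are given here as CPM per kilobase of annotated exon. Dusp6 led in both genotypes with 118 ± 7.80 in Trp53_KO and 119 ± 2.29 in Trp53_WT, followed by Dusp5 with 35.6 and 25.6. In Trp53_WT the order went on with Spry2 (22.4), Spred1 (16.5), Etv4 (10.6), Dusp4 (8.17), Spred2 (5.69), Etv5 (5.25), Spry4 (1.54) and Spry1 (1.01). The libraries of Etv4 and Dusp4, of Dusp4 and Spred2, and of Spred2 and Etv5 overlapped, so these neighbours were not separated by their spread. In Trp53_KO Dusp4 (21.2) came next after Dusp5, ahead of Spry2 (19.4) and Spred1 (17.7), whose libraries overlapped, then Etv4 (13.6), Spry1 (7.48), Etv5 (5.60), Spred2 (4.56) and Spry4 (2.76). Spry1 was thus the lowest of the 10 in Trp53_WT and the seventh in Trp53_KO.

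Because family members encode related proteins, the make-up of each family was described as the share each paralog takes of its family's level per kilobase. Spry1 held 25.2% ± 0.58 of the Sprouty level in Trp53_KO and 4.13% ± 1.03 in Trp53_WT (SD, n = 3 each), and Spry2 held 65.5% ± 0.79 and 89.5% ± 3.54. Spry2 remained the main Sprouty gene in every library. Dusp4 held 12.1% ± 0.84 of the level of the 3 phosphatase genes in Trp53_KO and 5.35% ± 0.56 in Trp53_WT, Dusp5 held 20.4% and 16.8%, and Dusp6 held 67.5% ± 0.72 and 77.9% ± 0.66. The main phosphatase gene was therefore Dusp6 in both genotypes.

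The other shares overlapped or nearly did. The share of Spry4 was 9.05% to 9.47% in Trp53_KO and 9.24%, 5.12% and 4.72% in Trp53_WT, so that Trp53_WT replicate 1 alone lay in the range of Trp53_KO. Spred1 held 79.4% ± 1.34 and 74.9% ± 7.41 of the Spred level, with 66.4% in Trp53_WT replicate 1. Etv4 held 70.8% ± 0.88 and 66.7% ± 2.30 of the level of the ETS factor genes, with a lowest Trp53_KO library of 69.87% and a highest Trp53_WT library of 68.15%. The summed level per kilobase was 175 ± 9.76 in Trp53_KO and 153 ± 4.15 in Trp53_WT for the phosphatase genes, 29.7 ± 1.28 and 24.97 ± 2.75 for the Sprouty genes, 22.2 ± 1.45 and 22.2 ± 2.55 for the Spred genes, and 19.2 ± 1.43 and 15.9 ± 1.90 for the ETS factor genes. The ratio of the sums was 1.15 for the phosphatase genes and 1.19 for the Sprouty genes, far below the single rises of Dusp4 and Spry1. No test was run on shares or sums.

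**Figure D4:**
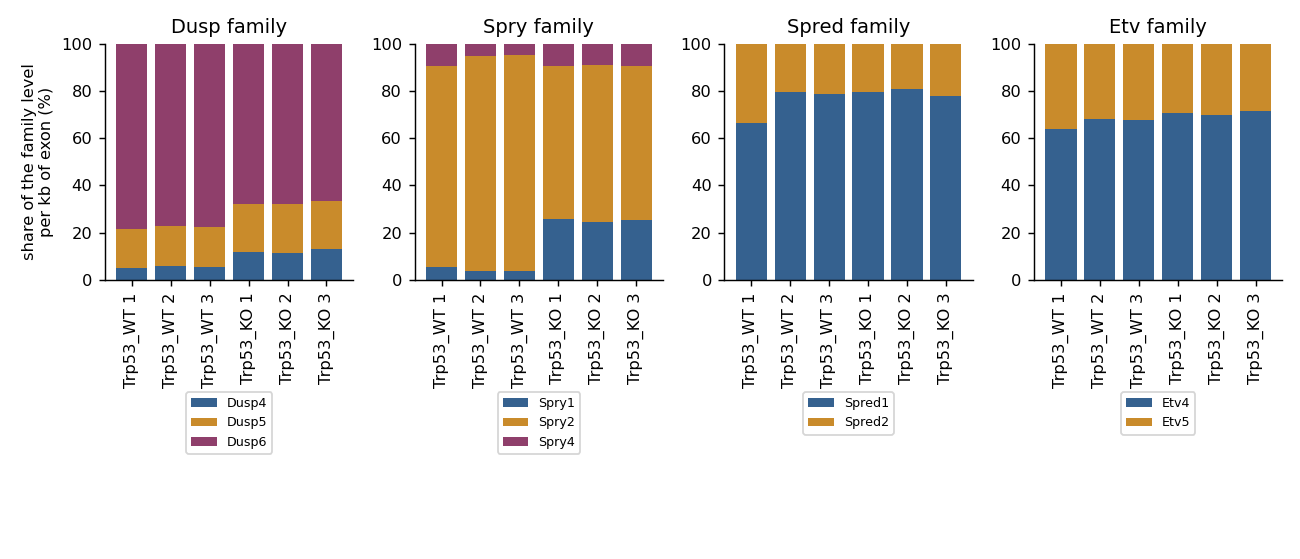
Share of each paralog in the summed level per kilobase of its family, in percent, for every library (bars stack to the whole). Spry1 takes 24.6% to 25.7% of the Sprouty level in the Trp53_KO libraries and 3.51% to 5.33% in Trp53_WT, while Spry2 and Dusp6 remain the largest part in every library.

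A second readout of the same libraries is the authors' deposited table of repeat loci, which holds, for each locus and read direction, an FDR (false discovery rate) and a fold change on the log2 scale, without values per library. It places 406 rows in the members, 391 of them in introns, and none in Spry1. Of these rows 3 had an FDR under 0.05, all higher in Trp53_KO, against 0.672% of the table's 773731 rows. In the authors' deposited table, 2 of the 3 lie in Dusp4, an AT-rich stretch in the 3' untranslated region (chromosome 8, 34819067 to 34819087) with a value of 1.18 (FDR 0.00043) and a B1_Mm element in an intron (34813009 to 34813162) with 2.20 (FDR 0.012). The first of these values is close to the gene's own log2 fold change of 1.37 and rests on reads of the same transcript, so it is not independent. The third, in the authors' deposited table, is a B2_Mm1a element read against the direction of Etv5 in an intron (chromosome 16, 22404371 to 22404559), with a value of 1.21 and an FDR just under 0.05, whereas the Etv5 gene count did not pass the test. The 194 rows in Spred2 and 97 in Spred1 held no such call.

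The other genes of the ERK pathway were mixed in direction. Of 108 tested genes in the 7 other lists, 22 were called higher and 33 lower in Trp53_KO (edgeR, adjusted p under 0.05), with a median log2 fold change of -0.14. The lists are described by their counts, given beside the 14.1% higher and 16.1% lower among all tested genes. The lists were chosen with earlier results of these data known, so these counts are a description and not a test.

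Ligand genes changed in both directions. Of 16 tested ligand genes 8 were higher and 5 lower. Areg, which encodes the EGF receptor ligand amphiregulin, fell from 20.5 ± 2.73 to 2.49 ± 0.33 CPM (SD, n = 3 each), and its fold change was -3.04 on the log2 scale (edgeR, Benjamini-Hochberg adjusted p = 4.1e-07). Ereg, which encodes epiregulin, fell from 235 ± 17.1 to 85.1 ± 13.6 CPM and Nrg1, which encodes the ERBB3 ligand neuregulin, fell with a log2 fold change of -1.81. The abundant ligand gene Btc did not pass the test (-0.07, edgeR adjusted p = 0.41). In contrast Pdgfb, a platelet-derived growth factor gene, rose from 190 ± 4.34 to 332 ± 17.6 CPM. Hbegf and Nrg2, named after their values were seen, also rose. Hbegf, another EGF receptor ligand gene, went from 39.7 ± 2.99 to 58.0 ± 5.7 CPM and Nrg2, another neuregulin gene, from 0.475 to 2.055 CPM. Pdgfd and Fgf18 were likewise picked after their values were seen. For Pdgfd 204 counts were found in Trp53_KO against 0 in Trp53_WT. This is at least 66.4-fold higher when 3 counts are set for the whole Trp53_WT group. Fgf18, a fibroblast growth factor gene, rose from 6.27 ± 1.14 to 17.4 ± 0.45 CPM.

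Of 10 tested receptor genes 3 were higher and 2 lower. Fgfr1 rose from 9.87 ± 1.70 to 47.0 ± 4.08 CPM, with 2.26 as its log2 fold change (edgeR, Benjamini-Hochberg adjusted p = 9.3e-07), while Fgfr2, another fibroblast growth factor receptor gene, fell from 17.6 ± 0.66 to 8.31 ± 0.78 CPM. Erbb3, which encodes a receptor for neuregulins, rose from 16.1 ± 0.71 to 35.6 ± 1.26 CPM. Among the abundant receptor genes, Egfr, the receptor for amphiregulin and epiregulin, was at 316 ± 12 and 324 ± 30 CPM (adjusted p = 0.75), Axl had a log2 fold change of -0.19 (adjusted p = 0.054) and Met, the receptor for hepatocyte growth factor, fell by 0.26 (adjusted p = 0.017).

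Genes of the core cascade changed in both directions. Of 28 tested genes 6 were higher and 7 lower, with a median log2 fold change of -0.04. These counts depended on single libraries: 2 were higher and 4 lower without Trp53_KO replicate 1, 3 and 4 without Trp53_KO replicate 3, 2 and 6 without Trp53_WT replicate 2, and 4 higher without Trp53_KO replicate 2 (6 lower) or Trp53_WT replicate 3 (7 lower). Map2k1 and Map2k2, which encode the MEK kinases, and Braf did not pass the test, with log2 fold changes of 0.02, 0.03 and -0.26 (edgeR, adjusted p = 0.8, 0.88 and 0.16). Mapk3, which encodes an ERK kinase, had a log2 fold change of -0.27 (edgeR, adjusted p = 0.026) that missed the threshold in 7 of 16 alternatives. The adaptor gene Gab2 changed most by its adjusted p and rose from 20.3 ± 1.03 to 38.6 ± 1.03 CPM. Araf, a RAF kinase gene, fell by 0.47 on the log2 scale, and the RAS gene Nras rose by 0.23. The RNA level says nothing about phosphorylation of these kinases, which was not measured here.

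Of 15 tested genes of other inhibitors of the pathway, 3 were higher and 3 lower, and without Trp53_WT replicate 1 the counts were 5 and 4, with Pebp1, which encodes a RAF inhibitor, then among the lower (-0.31, adjusted p = 0.00083). Il17rd, which encodes the FGF receptor inhibitor SEF and is itself known as a feedback gene, rose from 29.9 ± 4.15 to 73.6 ± 3.45 CPM, with 1.30 as its log2 fold change (edgeR, Benjamini-Hochberg adjusted p = 9.7e-06). The RAS GTPase activator gene Rasal2 rose by 0.53 on the log2 scale. Sulf2, a heparan sulfate sulfatase gene, fell by 2.05 and the ubiquitin ligase gene Cblb by 0.76. Errfi1, likewise listed as a feedback inhibitor and named after its value was seen, fell by 0.51 (edgeR, adjusted p = 0.005). Nf1, the partner of SPRED1, had a log2 fold change of -0.06 (adjusted p = 0.85) with all libraries and 0.27 (adjusted p = 0.0047) without Trp53_WT replicate 1. The phosphatase gene Dusp7, outside the naming rule, was counted among these inhibitors and had a log2 fold change of 0.055 (edgeR, adjusted p = 0.68). In a separate list of other MAP kinase phosphatases, 4 genes were tested. Dusp10 of that list, whose product acts mainly on p38 and JNK, fell by 0.46. None of the 4 was higher in edgeR, with 0 higher also at an unadjusted p under 0.05 and in DESeq2 and limma-voom. Dusp1, which encodes a nuclear MAP kinase phosphatase, had a log2 fold change of -0.32 (adjusted p = 0.12) and was called lower without Trp53_WT replicate 1 (-0.43, adjusted p = 0.0074), which made 2 lower in that list.

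Other genes often induced by ERK were mostly lower or not called. Of 21 tested genes 11 were lower, 9 were not called and 1, Ier2 (named after its value was seen), was higher. The median log2 fold change was -0.35. Without Trp53_WT replicate 1 there were 12 lower and 1 higher, and without Trp53_KO replicate 1, Trp53_KO replicate 3 or Trp53_WT replicate 3 there were 8, 9 and 10 lower and 0 higher. The AP-1 subunit gene Fosl1 fell from 18.5 ± 2.47 to 7.41 ± 1.24 CPM (edgeR, Benjamini-Hochberg adjusted p = 1e-04), the cytokine gene Lif by 1.04 and the chromatin protein gene Hmga2 by 1.06 on the log2 scale. The early response gene Ier3 fell from 237 ± 26.4 to 142 ± 6.76 CPM, and Ccnd1, which encodes cyclin D1, was at 535 ± 7.08 and 558 ± 41.8 CPM (adjusted p = 0.55). Myc and Mcl1 did not pass the test either, with log2 fold changes of -0.20 and 0.03 (edgeR, adjusted p = 0.13 and 0.83). Nor did Fos and Egr1, named after their values were seen, at 0.24 and -0.22 (edgeR, adjusted p = 0.39 and 0.36).

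Of 14 tested genes among other ETS factors and Cic, 1 was higher and 4 lower. The count of higher genes was 2 without Trp53_WT replicate 1 and 0 without Trp53_KO replicate 2, Trp53_WT replicate 2 or Trp53_WT replicate 3. Ets2 fell from 156 ± 6.46 to 79.7 ± 1.06 CPM, with -0.96 as its log2 fold change (edgeR, Benjamini-Hochberg adjusted p = 2.9e-06). The ternary complex factor genes Elk3 and Elk1, whose products act with serum response factor, fell by 0.86 and 0.70. Cic itself, outside the naming rule and named for its role, had a log2 fold change of -0.27 (adjusted p = 0.19).

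**Figure D5:**
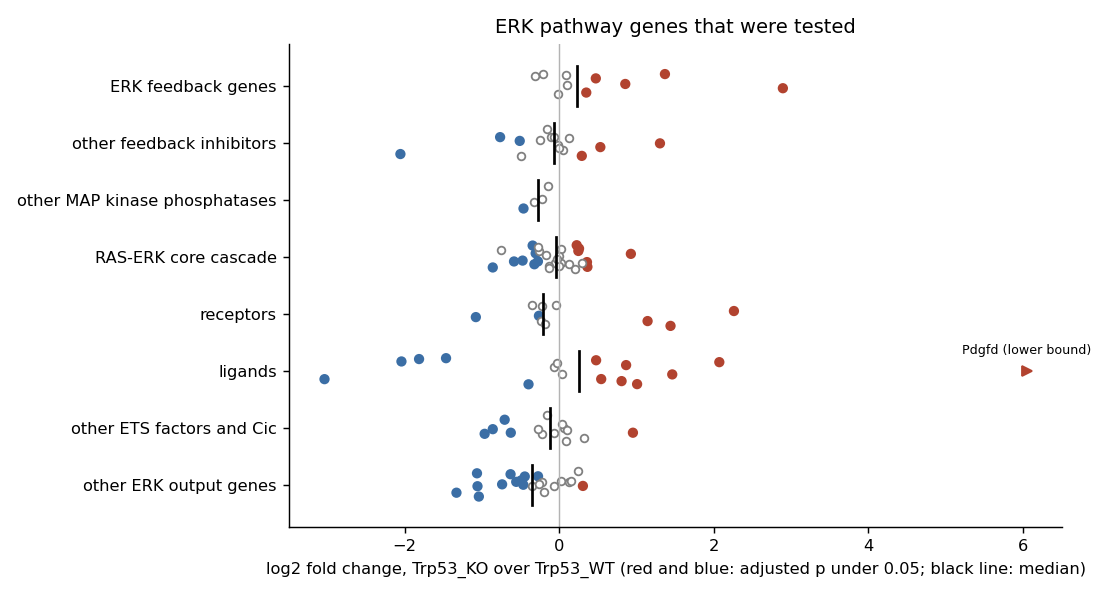
Log2 fold change of Trp53_KO over Trp53_WT for every tested gene of the ERK pathway lists, 1 point per gene, red where called higher, blue where called lower and open where not called, with a black line at the median of each list. The median of the ERK feedback genes is 0.23 and that of other ERK output genes is -0.35; Pdgfd, with 0 counts in Trp53_WT, is drawn at its lower bound.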

How the data were processed

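Raw counts for each gene symbol in 6 libraries were deposited by the authors. The submitters' processing notes name STAR, featureCounts, edgeR and the genome build mm10. For the gene counting, versions, strand setting and annotation were not given in sources used here. The authors' deposited repeat table gives a log2 fold change (its base is not stated by the authors and is taken as 2 here) and an FDR, which is an adjusted p-value.

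Counts were fitted with edgeR 4.0.16 in R 4.3.3 (filterByExpr, TMM scaling, genotype as the only term, quasi-likelihood F test, Benjamini-Hochberg adjustment over 13651 genes, threshold 0.05). Of 41327 genes, 18744 had no counts. The SE was taken from the log2 fold change and the F statistic (the change over the root of F), and intervals use 4 degrees of freedom. The fit was also run on simulated counts, with an outcome that is not reported here. No simulated library was made to stand apart, so that run does not bear on Trp53_WT replicate 1. Replicates were compared by chi-square per degree of freedom (2.01 to 27.5), and no pair agreed within sampling noise. Exon lengths and positions came from GENCODE M21, promoters from RefSeq. The bound for 0 counts covers counting error only.

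The members and gene lists were chosen with earlier results of these data known. Named were all members, Trp53, the core kinases and, of each list, up to 4 genes with the lowest adjusted p and any tested gene averaging at least 100 CPM; not all are printed, and some are not reported here. Alternatives were other size factors, filters, thresholds, DESeq2 1.42.0, limma-voom (limma 3.58.1), the replicate number as a block and each library left out.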

Additional observations from a re-analysis of the deposited data

How the results depend on the processing

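Over 16 alternatives for each of the 10 ERK feedback genes, 151 of 160 values kept their direction where called and their side of the threshold. The exceptions were the 8 for Etv4, which missed it, and Spry2 without Trp53_WT replicate 1, which was called lower at -0.33. The number of members lower was then 1, against 0 with all libraries, and ranged from 0 to 1 as each library was left out. Of other named genes, Nf1 reversed from -0.06 to 0.27 without Trp53_WT replicate 1 and ranged from -0.202 to 0.27 over the libraries left out. At an adjusted p under 0.01, 1199 of all genes were higher and 1379 lower, and against a fold of 1.2 (glmTreat) 1024 and 1221, compared with 1930 and 2200. Of other pathway genes 14 were higher at either of these, compared with 22. Leaving out 1 library gave 1388 to 2418 genes higher and 1589 to 2566 lower. With the longest transcript as the length, the shares in Trp53_KO were 11.2% for Dusp4, 26.1% for Spry1 and 75.3% for Etv4, and Etv4 took 71.5% in Trp53_WT. Other size factors shifted the median of all genes by at most 0.014 on the log2 scale.

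The labels do not say that replicate numbers pair the libraries. Deviations of same-numbered libraries correlated at -0.05, 0.08 and -0.12 across genes, and those of differently numbered libraries at -0.082 to 0.135. With 3 libraries a genotype, these values cannot decide whether the numbers pair the libraries. With the replicate number as a block, 4 members were higher and 0 lower, Etv4 had 0.36 (edgeR adjusted p = 0.05, no longer under the threshold), and 1771 of all genes were higher and 2035 lower. The cause of these differences was not tested. With 3 libraries a genotype, small changes such as that of Etv4 are near what the spread allows.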
